A study of Rattus norvegicus with 9 samples.

Results

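RNA of the adrenal medulla of rats immobilized once was compared with that of unstressed rats. The comparison takes the 3 arrays labelled as 1 session of immobilization (IMO_1x replicates 1 to 3) and the 3 labelled as control, which are 6 of the 9 arrays of the series, and fits them alone. All animals were adult rats of 280 to 320 g. The stressed rats had 1 session of 2 h and were killed after it, when both medullae were dissected for total RNA. The controls had no session. Strain and sex are not in the labels, which give the organism as Rattus norvegicus and the tissue as adrenal medulla, although some fields also carry the words mouse and brain. Nor do they state that the 3 arrays of a group came from 3 different animals. The p-values therefore reflect the spread between these samples only, and that spread may be technical.

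The adrenal medulla is the core of the adrenal gland. Its chromaffin cells are driven by splanchnic nerve endings that release acetylcholine and the peptide PACAP, and they secrete adrenaline, noradrenaline and stored peptides. Nicotinic and PACAP receptors raise calcium and cyclic AMP in these cells, which activates protein kinase A, the MAP kinases and calcineurin. Their targets include CREB, a factor bound to the cAMP response element, and a first wave of early genes that needs no new protein. Glucocorticoids reach the medulla from the surrounding cortex in the same blood.

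Each value is an intensity per probe set, and differences are given as log2(intensity + 16) after 1 session minus control, which understates the change of dim genes. Errors of levels are SD over 3 arrays, and errors of differences are standard errors (SE) of the limma fit. The threshold for a rise or a fall was an adjusted p under 0.05 (Benjamini-Hochberg). Trimmed means of the 6 arrays lay between 2499.98 and 2499.99, while their medians ran from 826.3 to 1053 and were lower after 1 session at each replicate number. The 6 arrays correlated at 0.855 to 0.984 across genes. The ratio of 3′ to 5′ actin probe sets, which grows as RNA is degraded, was 1.45 to 2.15 in control and 1.57 to 1.99 after 1 session (log2 difference -0.08, two-sided exact permutation p = 0.9, with 0.1 the lowest that these group sizes can give).

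Of 16 chromaffin markers 15 were tested, and their summed intensity was 381236 to 566690 in control and 412581 to 714539 after 1 session. Summed over the 11 tested of 16 adrenal cortex markers it was 414893 to 600546 in control and 372993 to 890692 after 1 session. The dissected tissue thus held cortex RNA in both groups, and the ranges overlapped. Over the 5 tested of 14 markers of brain neurons and oligodendrocytes the sum was no more than 3879 on any array. Sums over the macrophage, lymphocyte, fibroblast, erythrocyte and Schwann cell lists also overlapped between the groups. In these 5 lists 2 genes rose, both of the Schwann cell list, and 0 fell, against 2 higher and 3 lower in all at an unadjusted limma p under 0.05. The sums over the 8 tested pericyte and smooth muscle markers did not overlap, at 28374 to 35351 in control and 42952 to 44084 after 1 session. Sums were taken over 12 marker lists. Singly, 3 of the 8 pericyte and smooth muscle markers lay above all controls on every array after 1 session, as did 13.2% of all genes. Of the 8, 2 rose (25%, against 9.22% of all genes), and the median change was 0.08. In that list Acta2, smooth muscle actin, was at 4931, 2741 and 2576 in control and 8077, 6442 and 7240.2 after 1 session (1.14 ± 0.24, adjusted p = 0.00777), and Tagln, the actin-binding transgelin, rose by 0.79 ± 0.11. The 6 tested markers of sympathetic and preganglionic neurons summed to 20499 to 35242 in control and 17079 to 30756 after 1 session, with overlap. The 4 tested adipocyte markers summed to 26896 to 30451 in control and 23164 to 25977 after 1 session, without overlap. Only 1 of these 4 lay below all controls on every array after 1 session, and 1 fell (25%, against 19.1% of all genes). The median change of that list was 0.06. The part of these cell types in the gene results was not tested, and in whole tissue fewer cells of a type and less RNA per cell cannot be told apart.

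The promoters of several genes that rose hold the 8 letters of a full cAMP response element, TGACGTCA, within 250 bases before the start of the gene in RefSeq (build GRCr8). Giot1 and Ell2, whose rises are also reported, hold it too, beginning 248 and 233 bases before the start, and are not shown. Each of the following windows holds that element, in capitals, next to a gene whose rise is among those reported.
Maff, chr7:112792716-112792763, plus strand: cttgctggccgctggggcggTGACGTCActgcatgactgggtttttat
Vgf, chr12:25277083-25277130, minus strand: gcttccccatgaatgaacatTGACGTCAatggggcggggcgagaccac
Slc25a25, chr3:36116712-36116759, minus strand: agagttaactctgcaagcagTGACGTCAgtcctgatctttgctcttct
Ier2, chr19:40399287-40399334, plus strand: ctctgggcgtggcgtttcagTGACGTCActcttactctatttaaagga
Rcan1, chr11:45118416-45118463, minus strand: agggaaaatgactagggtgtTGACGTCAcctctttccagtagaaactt
Dusp1, chr10:17184709-17184756, plus strand: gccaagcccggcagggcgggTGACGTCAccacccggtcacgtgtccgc
Plk2, chr2:43702450-43702497, plus strand: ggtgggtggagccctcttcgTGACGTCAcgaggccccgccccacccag
The element began 51 bases before the start in Maff, 90 in Vgf, 158 in Slc25a25, 66 in Ier2 and in Plk2, 207 in Rcan1 and 124 in Dusp1.

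Promoters matched 9362 of the 11296 genes tested (82.9%). Read on both strands, the full element stood in 3.00% of all these promoters, in 5.26% of those of genes that rose (45 of 856), in 6.52% for genes that rose at least 4-fold (9 of 138) and in 2.31% for genes that fell (42 of 1822). Its first 5 letters, TGACG, which every full element also holds, stood in 28.4% of all, 37.5% of risen, 43.5% of at least 4-fold risen and 27.3% of fallen genes. The AP-1 site, TGACTCA or TGAGTCA, stood in 3.23%, 5.26%, 10.9% and 2.58% of the same classes. The Egr site, GCGTGGGCG or GCGGGGGCG, stood in 5.73%, 10.05%, 5.80% and 4.23%, and the CArG box, the site of serum response factor, in 1.27%, 2.10%, 1.45% and 1.04%. For the heat shock element, GAANNTTC, the shares were 4.77%, 4.32%, 6.52% and 5.76%. For the glucocorticoid response element, GAACANNNTGT, they were 0.438%, 0.584%, 0% and 0.439%. A match describes letters in these windows and was not tested as a binding site.

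After 1 session 1041 of 11296 genes tested rose (9.22%) and 2162 fell (19.1%). Of the calls, 518 rises and 753 falls were at least 2-fold, but at least 4-fold there were 169 rises and 49 falls. The rises were thus fewer and larger. How many genes fell depended on the scaling. The median change of all genes was -0.13 on the log2 scale as deposited, -0.0002 with each array centred on its median and -0.10 after quantile normalization. Of the genes called, 32.5% rose as deposited, 50.3% after centring and 37.7% after quantile normalization. Under all 3 scalings 959 genes rose (8.49%) and 1034 fell (9.15%). Gene lists are therefore given with both counts where these differ, and their shares are to be read against those of all genes.

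**Figure D1:**
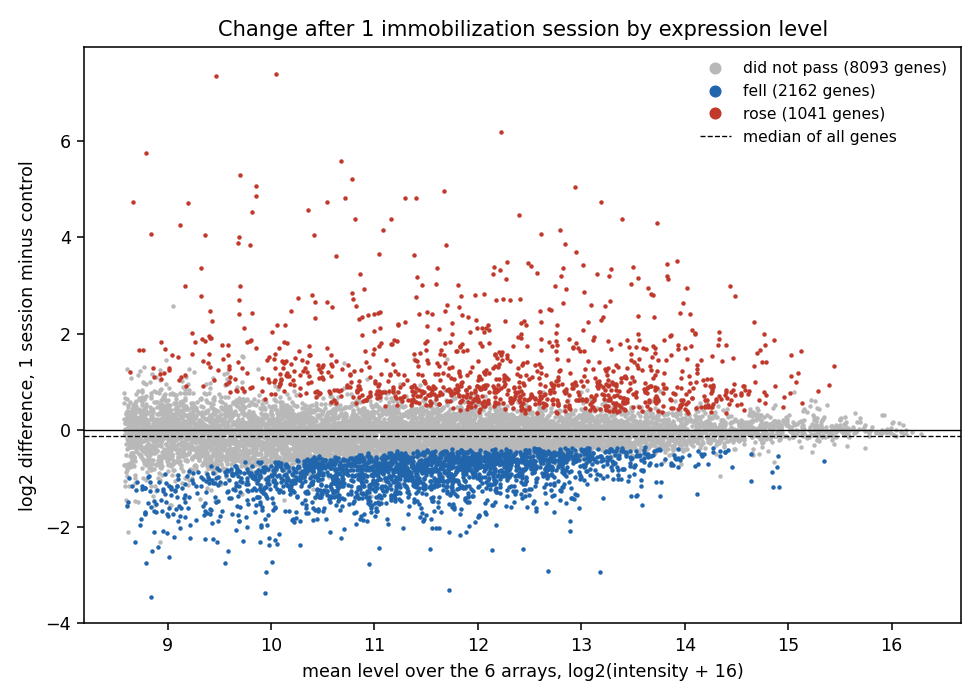
Log2 difference (1 session minus control) against mean log2 level over the 6 arrays, with 1 point per gene tested; 1041 genes that rose are red, 2162 that fell are blue, and the dashed line is the median of all genes, -0.13. The rises reach far higher than the falls reach low, and the falls lie mostly at middle levels.

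The values on all 3 arrays after 1 session lay above all 3 controls for 1496 genes (13.2%) and below them for 3348 (29.6%). Among the 3203 genes called, 3186 had no overlap between the groups and 17 had some. Where a called gene had further probe sets, these gave the same direction in 501 of 536 cases for rises (93.5%) and in 749 of 828 for falls (90.5%), against 3406 of 4463 for all genes tested (76.3%). Leaving out control replicate 2 or 3 lowered the falls to 1401 and 1298, which is more than 1.5 times fewer. Leaving out any 1 of the 6 arrays gave 744 to 1108 rises.

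Falls were most frequent at middle levels. Genes were split into 10 bins of equal size by mean level. In bin 1, the dimmest, 7.52% fell and 2.39% rose. In bin 5, with mean log2 levels of 11.05 to 11.50, 28.0% fell and 7.17% rose, and the median change was -0.29. In bin 10, the brightest, 4.16% fell and 14.8% rose, and the median was 0.02. Quantile normalization narrowed the range of these medians to between -0.15 and 0.02. Whether the fall at middle levels comes from the scale of the deposited values was not tested. Gene lists are set beside all genes without matching by level.

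**Figure D2:**
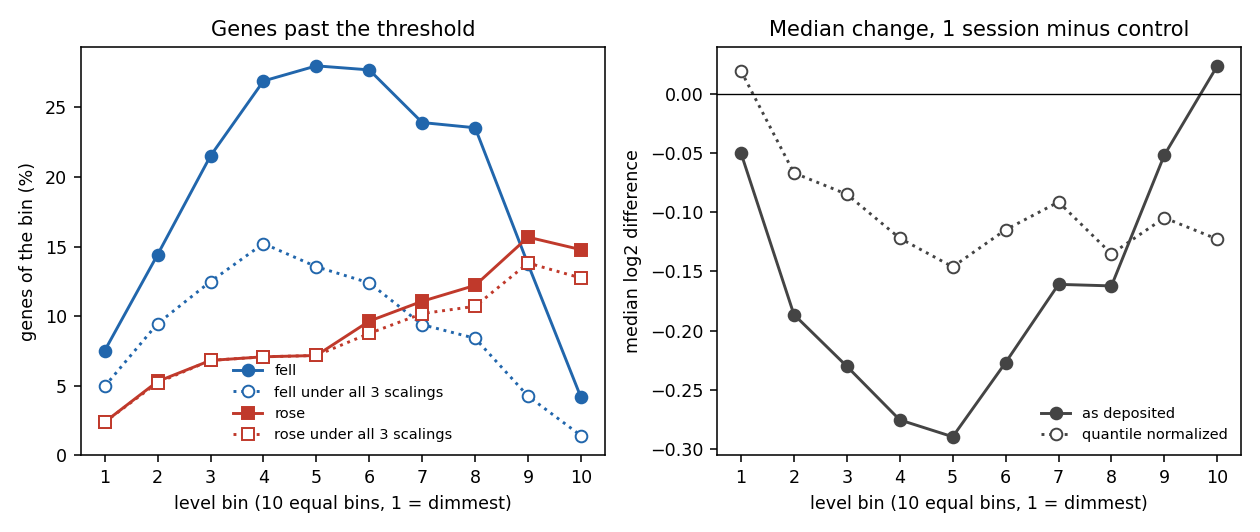
Left, percent of genes in each of 10 bins of mean level that fell (blue circles) or rose (red squares), as deposited (filled) and under all 3 scalings (open). Right, median log2 difference of each bin as deposited (filled) and quantile normalized (open); the share that fell is highest in the middle bins, at 28.0% in bin 5, and the share that rose is highest in bin 9, at 15.7%.

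The largest rises were those of Iqub, a gene of a protein with IQ and ubiquitin-like motifs, and Fosb. The intensity of Iqub was 88.6, 45.7 and 68.4 on the control arrays and 20740.1, 10040.3 and 12346 after 1 session. It rose by 7.39 ± 0.32 (SE) on the log2(intensity + 16) scale (adjusted p = 2.51e-06). Fosb, a partner of Jun proteins in AP-1, went from 39.3, 34.5 and 45.4 to 8133, 8073 and 11293 and rose by 7.35 ± 0.25. With 1 added in place of 16 the rises were 7.69 for Iqub and 7.80 for Fosb, so their order and size depend on the value added to the dim controls. Both genes were near the lowest intensities on every control array and among the brighter genes on every array after 1 session.

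Nr4a3, an orphan nuclear receptor, was brighter in control, at 460.0, 645 and 556, and reached 54432, 37758 and 32859 after 1 session, with a rise of 6.17 ± 0.21 and 2 of 2 further probe sets in the same direction. Its relatives Nr4a1 and Nr4a2 rose 10.4-fold and 5.46-fold. Giot1, a gonadotropin-inducible zinc finger factor of the ovary, went from 1294, 1402 and 1355 to 64969, 40795 and 34809.9 (5.05 ± 0.21, adjusted p = 2.51e-06). Scx, the helix-loop-helix factor scleraxis of tendon cells, went from 2297, 1763 and 1433 to 58152, 50654 and 37659. All arrays after 1 session lay above all controls in each of these genes.

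Other large rises were in secreted and membrane proteins. Olr1, the receptor for oxidized low density lipoprotein, was at 27.8, 86.9 and 33.1 in control and 2265, 3426 and 4407 after 1 session, a rise of 5.75 ± 0.42. Adamts4, a protease that cuts aggrecan, went from 657, 449 and 407 to 12981, 14220.2 and 15889 (28.1-fold). Tnfaip6, a hyaluronan-binding protein, went from 769, 316 and 398 to 28631, 7545 and 10891, and replicate 1 was the highest array in both groups. Fam110c rose 47.6-fold, the pleckstrin-like Phlda1 37-fold and the stress-induced factor Atf3 28.8-fold. No array of one group overlapped the other in any of these, as the choice by size required of its members.

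**Figure D3:**
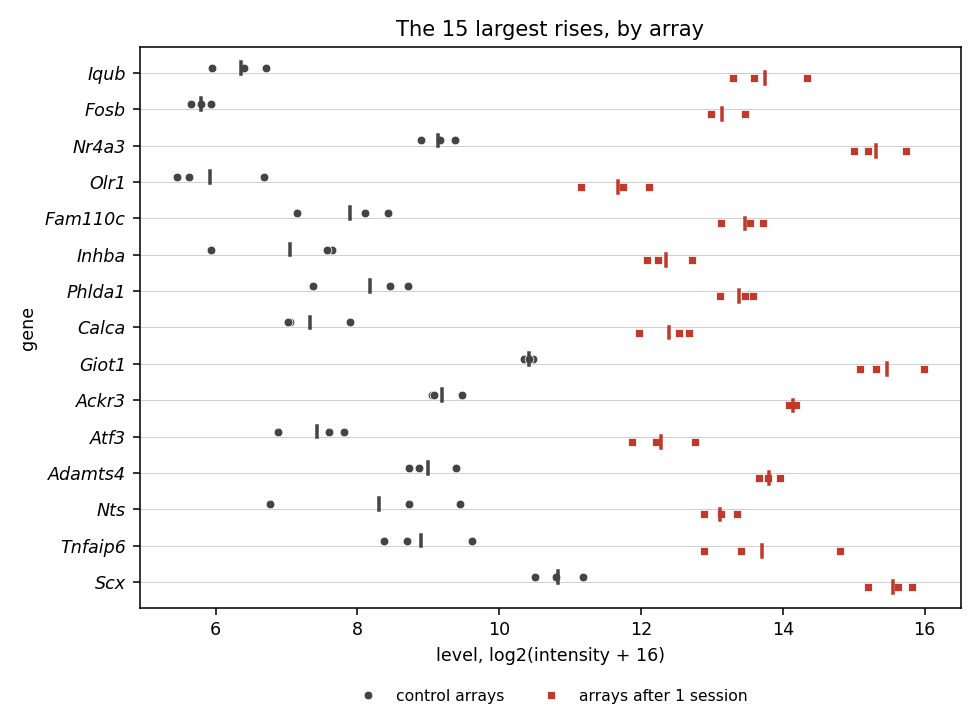
Level, as log2(intensity + 16), of the 15 genes with the largest rises; grey circles are the 3 control arrays, red squares the 3 arrays after 1 session and short bars the group means. Only genes without overlap between the groups were eligible, so the groups are apart in all 15 by that choice. Iqub and Fosb are separated most, by 7.39 and 7.35.

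CXCL12 is a chemokine with a pair of receptors, and these moved in opposite directions. Ackr3, the receptor that takes up the chemokine without G protein signalling, was at 692, 512 and 525 in control and 18350.4, 18651 and 17449 after 1 session. It rose by 4.95 ± 0.16, or 30.9-fold (adjusted p = 1.53e-06). Cxcr4, the receptor that signals through G proteins, was at 13703, 9635 and 9151 in control and at 1307, 1159 and 767 after 1 session. It fell by 3.32 ± 0.23 on the log2 scale, or 9.99-fold (adjusted p = 3.5e-05), and its 2 other probe sets differed by -2.77 and -2.96. No array overlapped between the groups for either receptor, as the choice by size required of its members.

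Receptors for the nerve signals themselves did not pass the threshold. Of the 7 tested nicotinic and peptide receptors of the splanchnic drive 0 rose and 0 fell, with changes between -0.47 and 0.44 (median -0.07, against -0.13 for all genes). At an unadjusted limma p under 0.05, and also with replicate number as a block, 1 was higher and 1 lower, and without control replicate 3 there was 1 fall. Among 24 other receptors of hormones and transmitters 2 rose and 3 fell (2 and 1 under all 3 scalings). These are 8.33% and 12.5%, against 9.22% and 19.1% of all genes. The rises numbered 1 without control replicate 2 or 3 or without IMO_1x replicate 2 or 3. Without control replicate 2 there were 0 falls, and 1 without control replicate 3, IMO_1x replicate 2 or IMO_1x replicate 3. Bdkrb2, the bradykinin B2 receptor, went from 973, 1182 and 608 to 6011, 9971 and 9074 (3.18 ± 0.27, adjusted p = 0.000104). Adra2b, an inhibitory adrenergic receptor, was at 830.0, 988 and 702 in control and 333, 493 and 320.3 after 1 session (a difference of -1.12 ± 0.29, adjusted p = 0.0187). Its adjusted p was 0.084 without control replicate 2 and 0.0648 without the third array after 1 session. P2ry2, a receptor for ATP and UTP, differed by -1.20 ± 0.33 (adjusted p = 0.0244) but was at 0.0588 after centring and 0.0591 after quantile normalization. Without control replicate 2, control replicate 3 or IMO_1x replicate 2 its adjusted p was 0.0842 to 0.0941.

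In the cAMP pathway 12 of 36 genes rose and 2 fell, also under all 3 scalings (median 0.20). Nfil3, a repressor that binds sites like those of CREB, went from 2927, 1786 and 2478 to 59819, 47534 and 41419, a rise of 4.37 ± 0.20. Crem, whose inducible product represses cAMP-driven genes, went from 3169, 3134 and 2841 to 89513, 59135 and 41074, and 5 of 5 other probe sets were higher too. Pde10a, a phosphodiesterase that breaks down cyclic nucleotides, rose 11.2-fold and Gem, a small GTPase that restrains calcium channels, 11-fold. The 2 that fell, named after their values were seen, were Adcy9, an adenylyl cyclase, and Crtc3, a coactivator of CREB. Adcy9 went from 1310.2, 1978 and 2026 to 458, 334 and 481, a fall of 4.03-fold, and Crtc3 from 4189, 5336 and 7094 to 2066, 1574 and 1494, a fall of 3.17-fold. Without control replicate 1, and with the replicate block, 5 genes of the list fell.

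MAPK feedback genes, the phosphatases and inhibitors that switch the MAP kinases off, rose in 12 of 14 cases (11 under all 3 scalings) and fell in 0, with a median of 1.35. Dusp14 went from 1930.5, 2254 and 2611 to 28678, 22326 and 19413, a rise of 3.36 ± 0.18. Dusp5 rose 6.28-fold, Dusp1 3.98-fold and Errfi1, an inhibitor of the EGF receptor, 2.74-fold. Of the kinases themselves 5 of 27 rose and 5 fell (5 and 4 under all 3 scalings, median -0.14, against -0.13 for all genes). These are 18.5% each, against 9.22% of all genes for rises and 19.1% for falls. Members of the p38 branch moved both ways. Map2k3, which activates p38, went from 7942, 8988 and 9380.3 to 26525, 29192 and 28172 and rose by 1.67 ± 0.12. Map2k6, the other activator of p38, named after its values were seen, went from 869.5, 1799 and 1313 to 142, 326 and 369.9 and fell by 2.23 ± 0.41 (adjusted p = 0.00443). Mapkapk2, a kinase downstream of p38, rose 4-fold, and Map3k4, an upstream kinase, fell 2.46-fold. The rises in this list numbered 3 without IMO_1x replicate 2 or without IMO_1x replicate 3.

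RGS proteins speed up the end of G protein signals, and 6 of 15 rose while 2 fell (median 0.24). Rgs1 went from 122, 42.7 and 160.3 to 1260.4, 2138 and 2382 and rose by 4.06 ± 0.46. Rgs2 and Rgs4, already bright in control, rose 3.11-fold and 2.99-fold. Rgs3 went the other way, from 4819, 4792 and 3741 to 2005, 2131 and 1883, and fell by 1.14 ± 0.16 (adjusted p = 0.00105). Without IMO_1x replicate 3 the rises numbered 3.

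Among transcription factors of the early response, 10 of 13 AP-1 and Maf genes rose and 0 fell (median 2.08), as did 7 of 9 Egr, Nab and Nr4a genes (median 1.60, 0 fell). Maff, a small Maf protein, went from 367, 181 and 305 to 5783, 8538 and 9041, a rise of 4.73 ± 0.29. In a wider list of early response genes and mRNA decay factors 22 of 38 rose and 0 fell (median 0.88), with 1 fall without control replicate 1 and with the replicate block. Csrnp3 and Csrnp1, nuclear proteins with cysteine- and serine-rich regions, rose 9.5-fold and 6.55-fold. Ier2 rose 4.68-fold, Rcan1, an inhibitor of calcineurin, 4.53-fold, the kinase Plk2 3.71-fold and Zfp36, which binds and destabilizes AU-rich mRNAs, 3.19-fold. Ppard, a nuclear receptor for fatty acids, went from 2778, 2381 and 2466 to 11264, 11989 and 13289.6 and rose by 2.25 ± 0.13. Ell2, a transcription elongation factor named after its values were seen, rose 14.5-fold.

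Members of the Krüppel-like family moved both ways, with 5 of 13 up and 1 down. Klf4 rose from 1660.1, 1439 and 1136 to 12939, 15489 and 15881 (3.38 ± 0.17), Klf6 rose 2.41-fold and Klf10 1.97-fold. Klf15, a glucocorticoid-inducible factor of metabolic tissues, was at 5438, 5250.5 and 5218 in control and 1899.5, 2584 and 2241 after 1 session and fell by 1.25 ± 0.15 (adjusted p = 0.000571). Without control replicate 1, and with the replicate block, 2 members fell.

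Activin and BMP genes included a ligand with one of the largest rises. Inhba, whose dimer is activin A, went from 45, 184 and 175 to 4832, 4334 and 6738, a rise of 5.30 ± 0.45 (39.4-fold). Of 44 genes of activin, BMP and TGF-beta signalling 12 rose and 4 fell (3 under all 3 scalings, median 0.23). Id1 and Id4, targets of BMP signals, rose 3.65-fold and 3.34-fold, and Skil, a repressor of Smad proteins, rose from 11884, 11856 and 11625 to 27074, 27888 and 25607. The Smads that carry activin and TGF-beta signals to the nucleus fell. Smad3 went from 2947, 2825 and 3244 to 1335, 1266 and 1305, a fall of 1.19 ± 0.15, and Smad2 from 3797, 4001 and 3814 to 2127, 2363 and 2113, a fall of 0.81 ± 0.13 (adjusted p = 0.00271). No array overlapped between the groups for either Smad. Without IMO_1x replicate 2 or without IMO_1x replicate 3 the falls in this list numbered 2, and with the replicate block 8.

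Of 18 tested neuropeptides and peptide hormones 9 rose, also under all 3 scalings, and 1 fell (0 under all 3 scalings, median 0.67); that fall was lost without control replicate 1 or 2 and without any 1 of the arrays after 1 session. Calca, which gives calcitonin and CGRP, went from 222, 117 and 114 to 4015, 5911 and 6516 (33.6-fold). Nts, neurotensin, was at 678, 407 and 92.9 in control and 10404, 7587 and 8896 after 1 session, with a control SD of 1.38 on the log2 scale. Ucn2, urocortin 2 of the CRH family, went from 347, 463 and 340.4 to 6261, 9153 and 9605 and rose by 4.37 ± 0.22. Uts2, the vasoactive peptide urotensin 2, went from 116, 90.4 and 92 to 4115, 3413 and 1917 and rose by 4.72 ± 0.33. All arrays after 1 session lay above all controls for these 4 peptides.

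Stored chromaffin peptides and granins moved less evenly. Vgf, a secretory granule protein, was at 3488, 1550.3 and 636 in control and 22768, 28009 and 25878 after 1 session, a rise of 4.06 ± 0.49. Penk, the enkephalin precursor, was at 7747, 1190.2 and 7891 in control and 14828, 30732 and 20979 after 1 session (2.34 ± 0.65, adjusted p = 0.0261, and 0.0828 and 0.0713 without IMO_1x replicate 2 and 3). Control replicate 2 was the lowest array for Penk. Npy was at 25489.6, 30942 and 20911 in control and 41544, 51379 and 37959 after 1 session (0.77 ± 0.18, adjusted p = 0.0137, and 0.0651 without control replicate 3 and 0.0567 without IMO_1x replicate 2). Penk, Npy and Slc18a2 were the 3 rises among the 15 chromaffin markers (1 without IMO_1x replicate 2, 5 with the replicate block). Of 17 granins and prohormone-processing genes 2 rose, Vgf and the convertase Pcsk6 (3.87-fold), and 0 fell. Without IMO_1x replicate 1, 2 fell, and with the replicate block 1.

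The main enzymes of catecholamine synthesis did not pass the threshold. Th, the rate-limiting enzyme, was at 79386, 54049 and 55633 in control and 113361, 68379 and 44651 after 1 session (0.18 ± 0.32, adjusted p = 0.74). Dbh, which makes noradrenaline, differed by 0.15 ± 0.28 (adjusted p = 0.759), Pnmt, which makes adrenaline, by 0.35 ± 0.25 (adjusted p = 0.345) and the granule protein Chga by 0.01 ± 0.31 (adjusted p = 0.993). In all 4 of these bright genes replicate 1 was the highest array of its own group, and the groups overlapped. The difference of Chga was -0.044 after quantile normalization.

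Genes of the cofactor and of storage rose. Gch1, the first enzyme in making tetrahydrobiopterin, the cofactor of Th, went from 13002, 7125 and 7162 to 40583, 36846 and 28936 and rose by 2.01 ± 0.24 (adjusted p = 0.000572). Gchfr, the protein that inhibits this enzyme, went from 873, 1073 and 1033 to 2240.3, 6016 and 5300.4 and rose by 2.05 ± 0.34. Slc18a2, the transporter that loads catecholamines into granules, went from 5069.6, 3301 and 2314 to 11713, 7997 and 7683 and rose by 1.40 ± 0.28 (adjusted p = 0.00615). These 3 were the rises among 17 genes of catecholamine synthesis, storage and breakdown, of which 0 fell (1 without control replicate 3).

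Cortex genes in the dissected tissue changed as well. Scarb1, the receptor that takes up cholesterol from high density lipoprotein, went from 20945, 12445 and 14736 to 88101, 54747 and 38296 and rose by 1.86 ± 0.30. Mrap, the accessory protein of the ACTH receptor, went from 19055, 12619 and 18679 to 50207, 42113 and 33404 and rose by 1.32 ± 0.21. Nr0b1, a repressor of steroid genes, went from 2542, 1907 and 3068 to 1011, 788 and 939 and fell by 1.42 ± 0.22 (adjusted p = 0.00203). Nr5a1, the main steroidogenic factor, differed by 0.75 ± 0.22 (adjusted p = 0.0311), with 0.071 after quantile normalization, 0.0566 without control replicate 2 and 0.0569, 0.0737 and 0.0812 without IMO_1x replicates 1, 2 and 3. Of the 11 cortex markers tested 3 rose (2 under all 3 scalings) and 1 fell (2 without IMO_1x replicate 1), with a median of -0.06.

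Genes known to be induced by glucocorticoids rose in 9 of 21 cases and fell in 3 (2 under all 3 scalings, median 0.34). Ddit4, an inhibitor of mTOR complex 1, went from 4209, 4291 and 3351 to 30346, 22766 and 18607, a rise of 2.57 ± 0.19, and the kinase Sgk1 rose 2.05-fold. Angptl4, an inhibitor of lipoprotein lipase, fell 2.53-fold, from 3716, 1935 and 2264 to 1060.3, 753 and 1228. Pdk4, which slows pyruvate entry into mitochondria, fell by 1.04 ± 0.20 (adjusted p = 0.00547), but its other probe set changed by 0.01, and the mean of both probe sets did not pass (-0.52, adjusted p = 0.0966).

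Some genes of glucose metabolism moved in opposing directions. Shpk, the kinase of sedoheptulose at the edge of the pentose pathway, had the largest fall of the genes whose higher group lay at or above the median level. It was at 2619, 3352 and 3594 in control and 192, 387 and 322 after 1 session and fell by 3.38 ± 0.29 (10.4-fold, adjusted p = 9.4e-05). Gys1, glycogen synthase of muscle type, fell from 2311, 2619 and 2567 to 718, 965 and 657 (3.2-fold), while Ppp1r3b, a subunit that directs a phosphatase to activate glycogen synthase, rose from 2642, 3332 and 2653 to 12139.6, 10679.8 and 19301 (4.73-fold). Pfkfb4, which sets the level of a glycolysis activator, rose 3.49-fold, and Ldha, lactate dehydrogenase A, rose 1.55-fold. Pdk2, a kinase that inhibits pyruvate dehydrogenase, fell from 2429.8, 4439.8 and 4121 to 500.1, 1554 and 956 (adjusted p = 0.00661). Of 15 genes of gluconeogenesis, glycogen and the pentose pathway 1 rose and 3 fell (2 under all 3 scalings), or 2 and 5 with the replicate block. In the main fit these are 6.67% and 20%, near the 9.22% and 19.1% of all genes. Over 26 glycolysis and glucose uptake genes 5 rose (19.2%) and 2 fell (7.69%), or 4 and 2 under all 3 scalings. There were 2 rises without IMO_1x replicate 3 and 3 without control replicate 3 or IMO_1x replicate 2. With the replicate block 4 of these 26 genes fell. Of 20 tested genes of the tricarboxylic acid cycle 1 rose and 0 fell (0 rose under all 3 scalings, and 1 fell with the replicate block), and leaving out any 1 array left 0 rises.

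The Adamts and Tnfrsf families were named after their counts were seen. Secreted proteases of the ADAMTS family rose in 4 of 9 cases and fell in 0 (median 0.59). Besides Adamts4, Adamts9 went from 1740.4, 1339 and 1414 to 16174, 14411 and 14434 and Adamts1 from 1437, 1385 and 1321 to 8633, 10015 and 10185, rises of 9.97-fold and 6.88-fold. The other probe set of Adamts9 changed by 0.06. Receptors of the TNF family rose in 4 of 9 cases and fell in 1 (0 under all 3 scalings, without control replicate 1 or without control replicate 3). They were Tnfrsf11b, the decoy receptor osteoprotegerin, by 1.55 ± 0.28, Tnfrsf12a, the receptor of TWEAK, by 1.01 ± 0.20, Tnfrsf21 by 1.05 ± 0.22 and Tnfrsf1a, the main TNF receptor, by 0.67 ± 0.14. In the wider list of cytokines, chemokines and their signalling 19 of 45 genes rose (18 under all 3 scalings) and 2 fell, with a median of 0.36.

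Growth factor receptors rose in 6 of 24 cases. Fgfr2 went from 1855, 2913 and 2407 to 22064, 21321 and 21327 and rose by 3.19 ± 0.17, with both other probe sets higher. Egfr rose 2.97-fold, Ntrk2, the receptor of BDNF, 2.68-fold and Fgfr1 1.54-fold. Receptors of VEGF differed in direction. Flt1, which binds VEGF with high affinity, was at 1711, 1596 and 1271 in control and 2477, 4703 and 3285 after 1 session (1.15 ± 0.24, adjusted p = 0.00827), while its 2 other probe sets changed by 0.15 and 0.26 and the mean of all probe sets did not pass (0.52, adjusted p = 0.168). Kdr, the main signalling receptor of VEGF, was at 20509, 15830.4 and 22501 in control and 13653, 9781 and 12099 after 1 session (-0.72 ± 0.18, adjusted p = 0.0149), with 0.0521 after centring, 0.065 without control replicate 3 and 0.0582 without IMO_1x replicate 2. Kdr and the angiopoietin receptor Tek (-0.37 ± 0.11, adjusted p = 0.0357, and 0.387 after centring) were the 2 falls in the list, of which 0 held under all 3 scalings. The falls of this list numbered 0 without control replicate 3 or IMO_1x replicate 2 and 1 without control replicate 1, control replicate 2 or IMO_1x replicate 3, and 5 with the replicate block. Tek missed the threshold when any 1 of the 6 arrays was left out (adjusted p 0.0629 to 0.118). Of the 11 endothelial markers tested 2 rose, Flt1 and the junction protein Esam (1.57-fold), and the 2 falls were Kdr and Tek; the summed level of the list was 69566 to 78473 in control and 67561 to 74879 after 1 session.

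Among 219 solute carriers 32 rose and 34 fell (30 and 12 under all 3 scalings, median -0.11). These are 14.6% and 15.5%, against 9.22% and 19.1% of all genes. Slc1a4, a carrier of neutral amino acids, went from 889, 645 and 543 to 6013, 4714 and 5048 and rose by 2.92 ± 0.21. Slc25a25, a calcium-regulated mitochondrial carrier of ATP, went from 3188, 3422 and 2025 to 18500.1, 14282 and 15221 and rose by 2.50 ± 0.21. Slc6a17, a synaptic vesicle carrier of amino acids, rose 5.69-fold. Slc7a11, which exchanges cystine for glutamate, rose 4.54-fold and Slc7a5, which carries large neutral amino acids, 4.12-fold. The falls in the list numbered 14 without control replicate 3, 19 without control replicate 2, 18 without IMO_1x replicate 2 and 19 without IMO_1x replicate 3, and the rises numbered 21 without IMO_1x replicate 3.

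Heat shock proteins and DnaJ cochaperones rose in 15 of 70 cases (13 under all 3 scalings) and fell in 5 (1 under all 3 scalings), with a median of 0.09. Hspb8, a small heat shock protein, went from 4264, 2882 and 2337 to 25166, 22412 and 20015 and rose by 2.87 ± 0.21. Hspa4l, a relative of Hsp110, rose 4.76-fold and Dnaja4 3.1-fold. The falls numbered 2 or 3 without control replicate 2, control replicate 3, IMO_1x replicate 2 or IMO_1x replicate 3, and 9 with the replicate block.

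**Figure D4:**
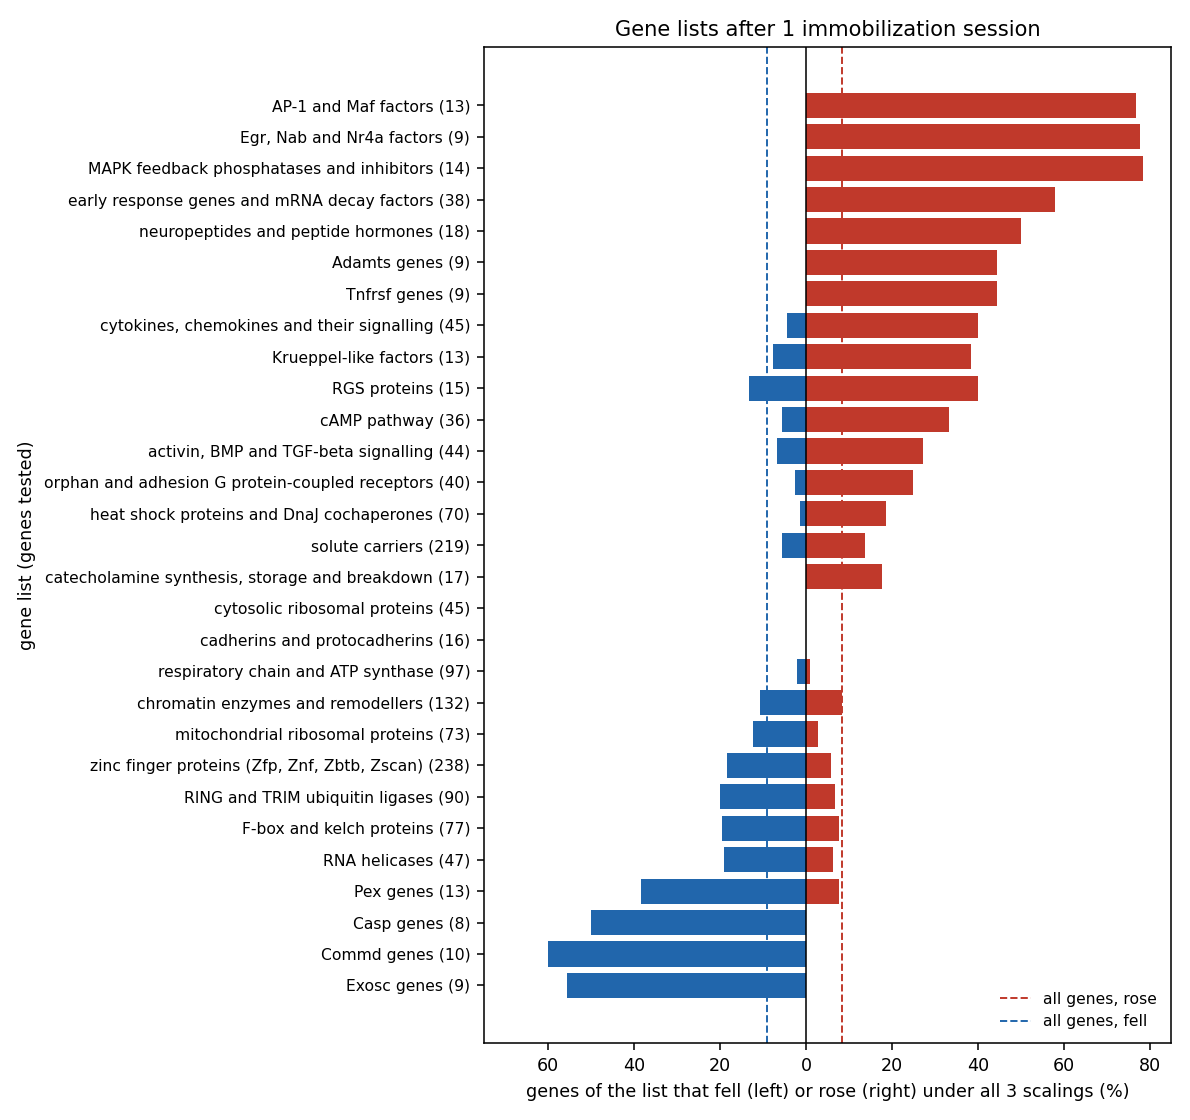
Percent of the tested genes of each list that rose (red, right) or fell (blue, left) under all 3 scalings, with the number tested in brackets; dashed lines are the shares over all genes, 8.49% up and 9.15% down. Early response lists lie at the top with most members up, the Exosc, Commd and Casp families at the bottom with members down only, and cytosolic ribosomal proteins and cadherins have no bar.

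By the same measure the largest falls lay in proteins of varied function. After Shpk and Cxcr4 came Tmem86a, an enzyme that breaks down lysoplasmalogens. It was at 30252, 19899 and 28327 in control and 4186, 2897 and 3079 after 1 session and fell by 2.94 ± 0.20 (7.67-fold), with a difference of -2.77 in its other probe set. The kinase Sbk1 went from 16458, 18039 and 19396 to 2895, 1909 and 2401 and fell by 2.91 ± 0.17 (adjusted p = 1.05e-05). Arhgef40, a guanine nucleotide exchange factor, went from 7221, 13607 and 12086 to 2645, 2126 and 1191, a fall of 5.58-fold. Every control array lay above every array after 1 session in all 3 genes.

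Macir, a gene named for immune regulation in macrophages, went from 10327, 14384 and 14659 to 2273, 2328 and 2427, and its SD after 1 session was 0.05 on the log2 scale. Pacsin3, which bends membranes in endocytosis, went from 4714, 5049 and 4917 to 969, 1028 and 699.9. Paqr7, a membrane receptor for progesterone, went from 5485, 7186 and 8606 to 1569, 1592 and 1660.2 and fell by 2.11 ± 0.18. Tril, an accessory protein of toll-like receptors, fell 4.34-fold, the deubiquitinase Mindy1 4.49-fold and Rhobtb1 4.31-fold. These falls were tight across arrays, with SE of 0.16 to 0.24.

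**Figure D5:**
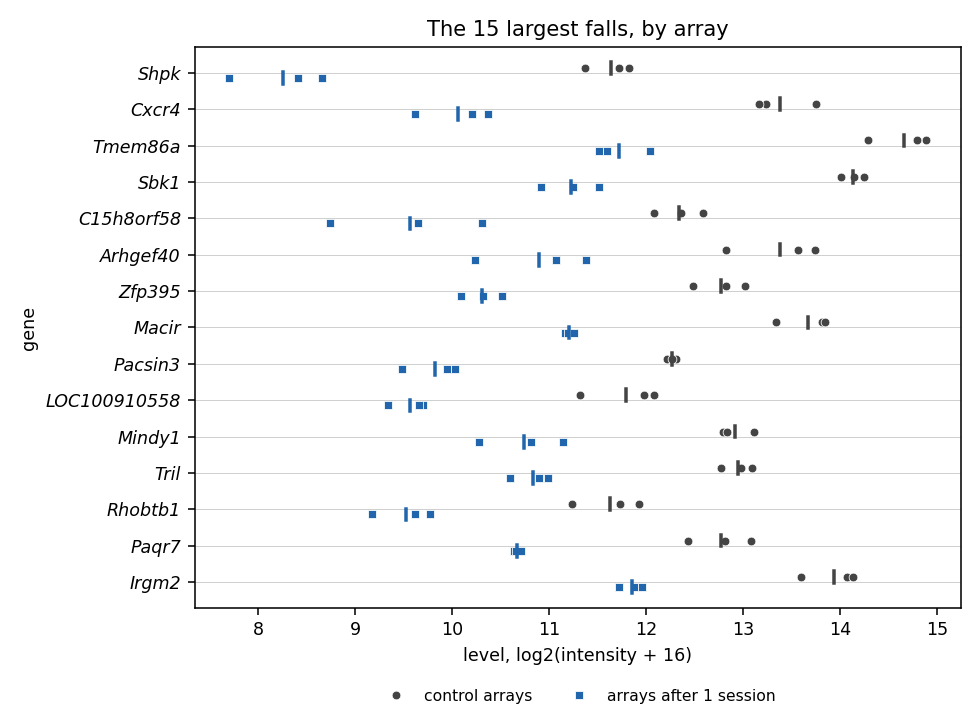
Level, as log2(intensity + 16), of the 15 genes with the largest falls among those whose higher group lay at or above the median level; grey circles are the 3 control arrays, blue squares the 3 arrays after 1 session and short bars the group means. Only genes without overlap between the groups were eligible, so the groups are apart in all 15 by that choice. The differences run from 3.38 in Shpk to 2.08 in Irgm2.

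Genes were also counted in 174 families of at least 8 tested genes that share a symbol stem. Fbxw genes had the highest share of falls, 6 of 8, but 1 fell under all 3 scalings. Without control replicate 2 or 3 there was 1 fall among them, and 3 without IMO_1x replicate 1 or 2, and with the replicate block 1 rose. Of 15 Dhx genes, which encode RNA helicases, 9 fell (5 under all 3 scalings) and 1 rose. The families named here were chosen after their counts were seen. The Commd proteins help recycle membrane proteins from endosomes. Of 10 tested 6 fell under all 3 scalings and 0 rose, with a median of -0.82. Commd2 went from 5452, 6212 and 6942 to 2037, 2487 and 2574 and fell by 1.38 ± 0.15, and Commd5 from 2930.1, 2483 and 3058 to 1299.9, 1194 and 1117, a fall of 1.22 ± 0.17. Commd6 fell by 1.06 ± 0.17 and Commd3 by 0.80 ± 0.12. Leaving out any 1 array left 6 falls.

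Exosc genes encode subunits of the RNA exosome, which degrades RNA from its 3′ end. Of 9 tested 6 fell (5 under all 3 scalings) and 0 rose, with a median of -0.77. Exosc4 went from 3702, 4047 and 4316 to 1761, 2082 and 1864, a fall of 1.07 ± 0.15. Exosc9 fell by 0.92 ± 0.16 and Exosc8 by 0.89 ± 0.16. Exosc1 fell by 0.77 ± 0.13, but the mean of its probe sets did not pass (-0.48, adjusted p = 0.0637). No array overlapped between the groups in any of these 4.

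Peroxins build peroxisomes and import their enzymes. Of 13 Pex genes 8 fell (5 under all 3 scalings) and 1 rose, with a median of -0.79. Pex2, a ubiquitin ligase of the import machinery, went from 6379, 8066 and 8710.5 to 2419.9, 1750.2 and 2545 and fell by 1.79 ± 0.19, Pex16 fell by 1.37 ± 0.17 and Pex14, the docking protein, by 0.95 ± 0.12. Pex5, the receptor that carries enzymes to the peroxisome, was the rise, from 7086, 8359.7 and 8549 to 12786, 13286 and 13123 (0.71 ± 0.12, adjusted p = 0.00304). The falls numbered 4 without control replicate 1 and 5 without control replicate 3, IMO_1x replicate 2 or IMO_1x replicate 3.

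Genes of the Casp stem are the caspases, proteases of cell death and of interleukin processing, and Casp8ap2, a binding partner of one of them. Of 8 tested 4 fell under all 3 scalings and 0 rose, with a median of -0.93. Casp9, which starts the mitochondrial death pathway, went from 2151, 2457 and 2294 to 999, 917 and 729 and fell by 1.38 ± 0.19. Casp2 went from 6934, 9222 and 8543 to 3239, 3664 and 3352 and fell by 1.26 ± 0.14, and Casp12 fell by 1.01 ± 0.17. Casp8, which starts the death receptor pathway, differed by -0.85 ± 0.22 (adjusted p = 0.0178) and missed the threshold without control replicate 2, control replicate 3, IMO_1x replicate 2 or IMO_1x replicate 3 (adjusted p 0.0617 to 0.0713).

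Of 16 inhibitors of cyclin-dependent kinases and targets of p53, which halt the cell cycle, 4 fell (3 under all 3 scalings) and 1 rose, with a median of -0.56. Ccng2, an atypical cyclin of resting cells, went from 4845, 5245 and 5445 to 1347, 1512 and 1542 and fell by 1.81 ± 0.14 (adjusted p = 5.99e-05). Sesn1, a p53 target that restrains mTOR complex 1, went from 4779, 5329 and 5157 to 1372, 1612 and 1657 and fell by 1.71 ± 0.15, and Cdkn2c, an inhibitor of Cdk4 and Cdk6, fell by 1.06 ± 0.23. Cdkn1a, the inhibitor p21, rose instead, from 3995, 1039 and 1459 to 5949, 11324 and 10471 (2.28 ± 0.45, adjusted p = 0.00615). With the replicate block 7 of the list fell.

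Zinc finger genes, most of which bind DNA, were the longest list. Of 238 genes 77 fell and 15 rose, or 44 and 14 under all 3 scalings, with a median of -0.40. The share that fell was 32.4%, against 19.1% of all genes tested and 28.0% of level bin 5, where falls were most frequent. Zfp395 went from 5709, 8287 and 7194 to 1260.1, 1071 and 1448 and fell by 2.47 ± 0.19. Zfp347 had the largest rise of the list, from 6498, 4263 and 3978 to 64553, 38851 and 34306 (9.18-fold). The falls numbered 45 to 50 without control replicate 2, control replicate 3, IMO_1x replicate 2 or IMO_1x replicate 3, and the rises 8 without control replicate 3.

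Chromatin enzymes and remodellers fell in 37 of 132 cases and rose in 11, or 14 and 11 under all 3 scalings, with a median of -0.36. The falls were 28.0% of the list, against 19.1% of all genes, but 10.6% under all 3 scalings, near the 9.15% of all genes. The rises, 8.33%, were near the 9.22% of all genes (8.49% under all 3 scalings). The paired histone H3 methyltransferases of Polycomb complexes moved apart. Ezh2 went from 587, 832 and 834 to 8110.3, 9319 and 11087 and rose by 3.64 ± 0.19 (12.5-fold), with a difference of 3.45 in its other probe set. Ezh1 went from 7064, 7748 and 7457 to 2893, 3115 and 3014 and fell by 1.30 ± 0.12 (adjusted p = 0.000138), with a difference of -0.98 in its other probe set. The bromodomain proteins Brd8 and Brd2 rose 3.47-fold and 2.79-fold. The falls in the list numbered 20 without control replicate 3, 24 without control replicate 2 or IMO_1x replicate 3, and 58 with the replicate block.

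Ribosomal proteins of the mitochondria and of the cytosol stood at different shares. Of 73 mitochondrial ones 30 fell and 2 rose (9 and 2 under all 3 scalings, median -0.45). The falls were 41.1% of the list, against 19.1% of all genes, but 12.3% under all 3 scalings, near the 9.15% of all genes. Without control replicate 3, 18 fell. The rises numbered 1 without any 1 of the controls or without IMO_1x replicate 3. Mrps31 went from 2774, 3347 and 4161 to 1406, 1163 and 1305, a fall of 1.38 ± 0.19, Mrpl51 fell by 0.96 ± 0.15, Mrpl32 by 0.92 ± 0.14 and Mrpl19 by 0.90 ± 0.14, while Mrps25 rose by 0.96 ± 0.17. Of 45 cytosolic ones 0 rose and 0 fell in the main limma fit (median 0.01), with 0 higher and 1 lower at an unadjusted p under 0.05 and 1 fall with the replicate block. Respiratory chain and ATP synthase genes numbered 97, of which 7 fell and 1 rose (2 and 1 under all 3 scalings), and 2 to 6 fell when 1 array was left out, with 2 without control replicate 2 or 3 and 4 without IMO_1x replicate 1, 2 or 3. With the replicate block 11 fell and 3 rose, and 2 rose without IMO_1x replicate 1 or 2. The rise as deposited was Ndufa5, a subunit of complex I, which went from 4086, 3956 and 5206 to 59595, 48438 and 38253 (10.9-fold). The difference in share between the ribosomal families was not tested, and the families were not matched by level.

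Ubiquitin ligases and their adaptors fell more often than they rose, as did all genes tested (19.1% and 9.22%). RING and TRIM genes fell in 28 of 90 cases and rose in 7 (18 and 6 under all 3 scalings, median -0.31), and F-box and kelch genes fell in 32 of 77 and rose in 6 (15 and 6, median -0.41). The falls were 31.1% and 41.6% of these lists. Under all 3 scalings they were 20% and 19.5%, against 9.15% of all genes. Trim32 went from 7713, 7258 and 8237 to 2570.1, 1775 and 1910.2 and fell by 1.90 ± 0.16 (adjusted p = 0.000106). Without control replicate 2 and 3 the RING and TRIM falls numbered 15 and 17, and the F-box and kelch falls 21 and 18. The RING and TRIM rises numbered 4 without control replicate 2 or IMO_1x replicate 3, and the F-box and kelch rises 3 without IMO_1x replicate 3. RNA helicases fell in 15 of 47 cases and rose in 4 (9 and 3 under all 3 scalings, median -0.31). Those falls were 31.9% of the list, or 19.1% under all 3 scalings, against 19.1% and 9.15% of all genes. In it Ddx46, a helicase of the early spliceosome, rose 5.08-fold and Dhx38, a helicase of its later steps, 3.07-fold. Of 46 proteasome genes 5 fell (3 under all 3 scalings) and 0 rose. The 5 falls were 10.9% of the proteasome list, below the 19.1% of all genes. Of these genes 3 fell without control replicate 2 or IMO_1x replicate 2. With the replicate block 11 fell and 1 rose.

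Interferon-induced genes moved both ways. Of 29 tested 9 fell (3 under all 3 scalings) and 4 rose, with a median of -0.39. The falls were 31.0% of the list, against 19.1% of all genes, but 10.3% under all 3 scalings, near the 9.15% of all genes. The rises were 13.8% of it, against 9.22% of all genes (8.49% under all 3 scalings). Irgm2 and Igtp, GTPases of the immunity-related family induced by interferon gamma, went from 12368, 17184 and 17934 to 3941, 3356 and 3743 and from 5749.7, 7113 and 7071 to 1927, 1929 and 2079, falls of 4.24-fold and 3.33-fold. Irf1, a factor of the same response, went from 11833, 13043 and 12369 to 4484, 4519 and 5116 and fell by 1.40 ± 0.12. Ifit3 and Oasl, known as targets of type I interferon, rose 5.27-fold and 3.35-fold, from 984, 1075 and 2038 to 5551, 8116 and 7249.9 and from 5632, 8962 and 7514 to 22395, 27022 and 23602. Over the whole list 3 fell without control replicate 2 or control replicate 3 and 5 without IMO_1x replicate 2, and 15 with the replicate block.

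Other lists held few calls. Of 16 cadherins and protocadherins 0 rose and 0 fell in the limma fit and 0 were higher or lower at an unadjusted p under 0.05 (changes of -0.49 to 0.65), with 1 rise when control replicate 1 was left out. Of 25 lysosomal enzymes 2 fell and 0 rose, and 0 fell under all 3 scalings, without control replicate 2, without control replicate 3 or without IMO_1x replicate 3; 1 fell without control replicate 1 or IMO_1x replicate 2.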

How the data were processed

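The values deposited by the authors are linear intensities, with 1 for every probe set on every array. Per the labels, Affymetrix ran the arrays. The summarisation method is not given in the sources used here, and trimmed means near 2500 show that the arrays had been scaled. Of 31099 probe sets, 57 controls were left out, and 20826 had 1 gene symbol, 436 several and 9780 none in the platform annotation. 20764 of them matched a current gene by identifier. After the dimmest 30% of probe sets were removed, each gene was represented by its brightest probe set, which left 11296 of 14217 genes. Values were log2(intensity + 16), fitted with limma 3.58.1 in R 4.3.3 (lmFit, eBayes with a trend) on 6 arrays, with Benjamini-Hochberg adjustment over all genes tested. The fit was tested on simulated data. Same-numbered arrays of the groups deviated together (correlations across genes of 0.516, 0.367 and 0.265), although control 2 and IMO_1x 3 reached 0.275. The replicate number was therefore tried as a block, while the main fit had no block. Whether same-numbered arrays form pairs is not settled by these values. Alternatives were median centring, quantile normalization, other pseudocounts, filters, thresholds and probe set rules, array weights, and leaving out each array. Genes were named by size (15 rises, 15 falls), or as up to 4 members of a list or symbol family with the smallest adjusted p, besides Th, Dbh, Pnmt and Chga. Those named by size had to pass the threshold, also after centring, and to have no overlap between the groups. The mean of their higher group also had to lie at or above the median level of all genes tested. Members and lists were chosen with earlier results of these data known. Tissue marker lists were counted the same way. Promoter sequences are those of RefSeq.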

Additional observations from a re-analysis of the deposited data

Results flagged for a closer look

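Outside the genes compared, 2 of the probe sets with no gene symbol in the annotation used stood far above the control arrays after 1 session. Probe set 1368519_at had intensities of 176, 49.2 and 206 in control and 3119.75, 5702 and 8261 after 1 session, a log2 difference of 5.24. Probe set 1395876_at had intensities of 204, 49.2 and 79.9 in control and 4081, 2458 and 2654 after 1 session, a log2 difference of 4.75. No array overlapped between the groups for either of them. With 3 arrays a group, no array was screened as an outlier within its group.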

How the results depend on the processing

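Rises numbered 650 and falls 1082 at an adjusted p under 0.01, 332 and 292 when tested against a 1.5-fold change, and 456 and 586 when the spread was shared over all 9 arrays. Centring each array lowered the falls to 1042. The replicate block with each array centred, chosen after seeing the data, gave 1729 rises. Leaving out 1 array gave 744 to 1108 rises and 1298 to 2134 falls. With the replicate number as a block 1344 genes rose and 2981 fell, including all 1041 and 2162 of the fit without it, and the block changed no other count by over 1.5 times than those given beside their lists. The other settings left both counts within 1.5 times. Of 165 genes named, 161 were past the threshold, and 108 of these stayed past it in all 22 settings. 0 of the 161 reversed. The 1.5-fold test took 46 calls away and the 9-array fit 40, the causes of which were not tested. Among the genes that did not pass, leaving out 1 array gave differences of -0.17 to 0.51 for Th (the lowest without IMO_1x replicate 1), -0.12 to 0.40 for Dbh (-0.0089 without control replicate 3, the lowest without IMO_1x replicate 1) and -0.30 to 0.32 for Chga (-0.10 without control replicate 2 or 3, the lowest without IMO_1x replicate 1). Chga was at -0.044 after quantile normalization and -0.017 with array weights. The number of arrays limits the precision, and each fit had 4 residual degrees of freedom before moderation.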

Other observations

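Of 46 potassium channel genes 4 rose and 2 fell (4 and 1 under all 3 scalings), with a median of 0.02. These shares, 8.70% and 4.35%, were below those of all genes, 9.22% and 19.1%. Kcnk5, an acid-sensitive background channel, went from 127, 101 and 107 in control to 1663, 2271 and 3689 after 1 session, a rise of 4.25 ± 0.33 on the log2 scale. Kcnh2, a delayed rectifier known from the heart, went from 2883, 4774 and 3783 to 1658, 1612 and 1728 and fell by 1.16 ± 0.20 (adjusted p = 0.00303). Kcnk12 and Kcnj8 differed by 2.11 ± 0.52 and 0.75 ± 0.17, with an adjusted p of 0.0612 and 0.0515 without IMO_1x replicate 2, where 1 rise of the list was left. The falls of the list numbered 1 when any array other than IMO_1x replicate 1 was left out. With the replicate block the rises numbered 8.

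Orphan and adhesion receptors coupled to G proteins rose in 11 of 40 cases and fell in 2 (10 and 1 under all 3 scalings), with a median of 0.09. Gprc5b went from 168, 293 and 328 to 5899, 6088 and 7266 and rose by 4.57 ± 0.26. Gpr180 went from 1809.9, 1284 and 1347 to 13868, 13629.7 and 14101, a rise of 9.39-fold. Gpr137b rose 3.26-fold, with 3 of 3 other probe sets in the same direction, and Gpr4, a proton sensor, 2.67-fold. The rises numbered 7 without control replicate 3, IMO_1x replicate 2 or IMO_1x replicate 3. The falls numbered 1 without control replicate 2, control replicate 3 or IMO_1x replicate 3 and 4 with the replicate block.

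A pair of promoter motifs was counted after the other shares had been seen. TATAAA stood in 6.69% of all promoters read, in 9.23% of those of genes that rose, in 15.2% for rises of at least 4-fold and in 4.34% for falls. The Ets site, CCGGAAG, stood in 14.99%, 11.1%, 6.52% and 19.5% of the same classes. These shares are descriptions and were not tested.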
